A study of Mus musculus with 24 samples.

Results

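Non-canonical CD8+ dendritic cells (NC_CD8) of mouse spleen were set against the CD11b+ dendritic cells of the same organ, by RNA sequencing of cells sorted by flow cytometry. The comparison uses 6 of the 24 libraries of the series, chosen by their labels: those of wild-type mice that belong to experiment batches C and D. NC_CD8 cells, the Esamhi fraction and the Esamlo fraction of the CD11b+ cells each gave 1 library in batch C and 1 in batch D. All mice were F1 animals from a cross of C57BL/6 with FVB/N. In all 6 libraries the Flt3 genotype was +/+ (wild type, WT). The other genotype of the series, ITD/+, carries an internal tandem duplication in 1 copy of Flt3, the receptor whose ligand drives dendritic cell development. Its 6 matching libraries are compared beside the wild-type result and also enter the estimate of spread behind every test. NC_CD8 cells were compared with the mean of the 2 CD11b+ fractions and then with each fraction alone. All 17341 genes that passed a filter on low counts were tested. The spread between libraries was estimated over the 16 libraries of batches C and D, which fall into 8 groups. The labels give neither the antibodies of the sort nor the number, age or sex of the mice behind a library, and the replicates came from independent experiments per the series design text.

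Dendritic cells of the spleen fall into several subsets. Plasmacytoid cells depend on the transcription factor TCF4 (E2-2) and are known for making type I interferon. Canonical CD8+ cells, or type 1 conventional dendritic cells (cDC1), are known for cross-presenting antigen to CD8+ T cells. CD11b+ cells, or type 2 conventional dendritic cells (cDC2), present antigen to CD4+ T cells, and their Esam-high fraction depends on Notch2 signalling, whereas the Esam-low fraction is closer to monocytes in its genes. Non-canonical CD8+ cells carry CD8 and the chemokine receptor CX3CR1, are poor at cross-presentation, and have been placed close to the plasmacytoid lineage.

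The 6 libraries held 14112020 to 18224798 counts. On the first principal component of these 6 libraries, which held 39% of the variance, the NC_CD8 libraries lay at -67.1 and -68.1 and the CD11b+ libraries between 3.95 and 55.8. The second component held 24.7% of the variance. Libraries of the same group differed by far more than counting error (chi-square divided by its degrees of freedom of 24.3 to 48.4). Levels are given in CPM, the counts of a gene scaled to a common library total. A pair of values runs from batch C to batch D. Differences are log2 fold changes of NC_CD8 over CD11b+ cells with their standard error (SE), and a positive value means a higher level in NC_CD8 cells. Every adjusted p comes from edgeR's quasi-likelihood test with Benjamini-Hochberg adjustment over the 17341 genes, and a gene was called at an adjusted p under 0.05.

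Of the 17341 genes, 962 were called higher in NC_CD8 cells (5.55%) and 844 lower (4.87%). A difference of at least 2-fold was reached by 528 of the genes called higher and 449 of those called lower. In 1805 of these 1806 genes the difference had the same sign in batch C and in batch D, and in 1654 the NC_CD8 libraries did not overlap the CD11b+ libraries in CPM. Both counts come from libraries that made the calls, so they largely follow from the calls and lend them no support. The shares over all tested genes were not counted. The median log2 difference over all tested genes was 0.000992. With the batch as a block, 1342 genes were higher and 1307 lower, and they included all 1806. Single libraries moved the number of calls: 389 genes were called higher and 314 lower without the NC_CD8 library of batch D, 548 were called higher without that of batch C, and 639 without the Esamhi library of batch D. In a bulk sample, fewer cells of a type and less RNA per cell cannot be told apart, which applies to each difference given here.

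**Figure D1:**
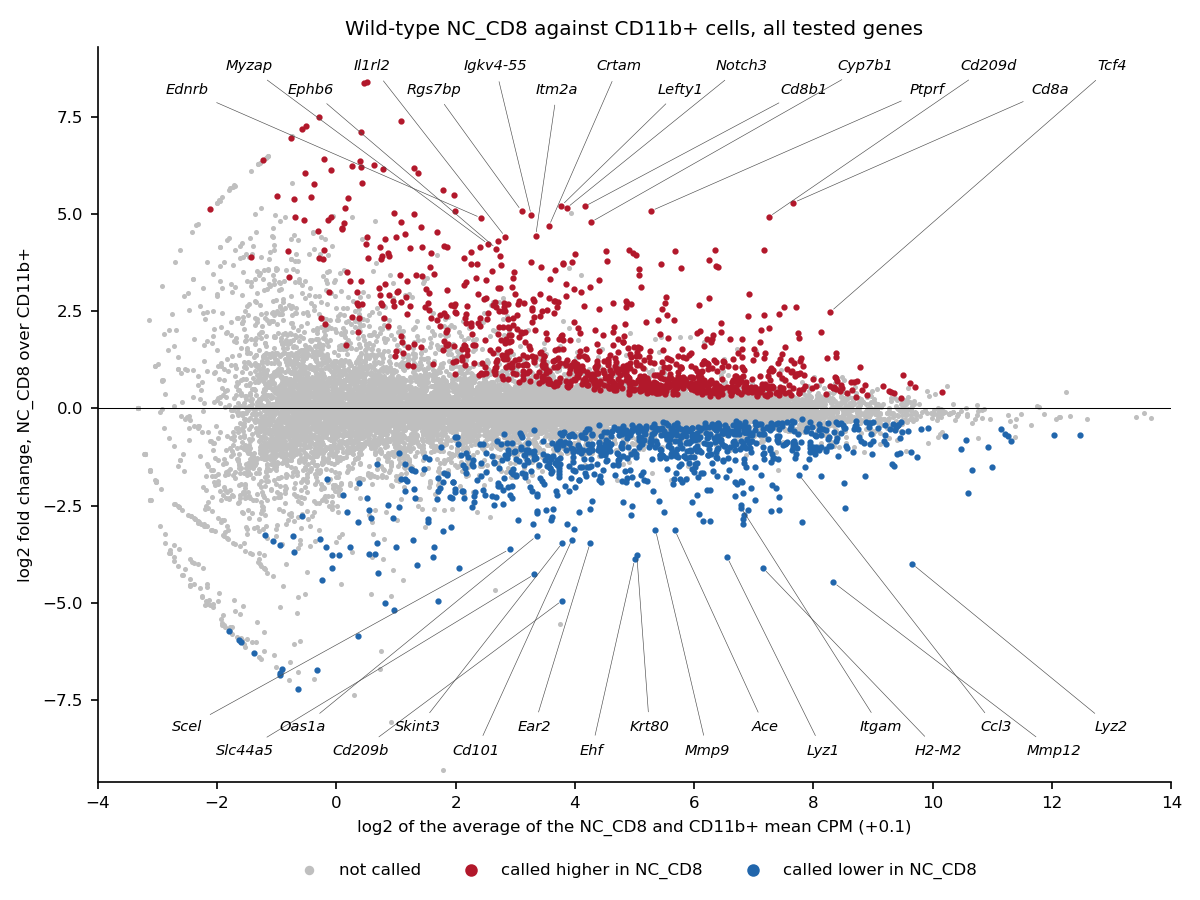
Log2 difference of NC_CD8 over CD11b+ wild-type cells (vertical axis) against the log2 of the average of both mean levels in CPM with 0.1 added (horizontal axis), for 17341 genes. Red points are the 962 genes called higher in NC_CD8 cells, blue points the 844 called lower and grey points the rest, and the named points include the 15 largest called differences in each direction by the rule for named genes.

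The genes that mark the sorted cells went with the labels. Cd8a, the CD8 alpha chain, stood at 396 and 394 CPM in NC_CD8 cells, against 6.71 and 4.02 CPM in Esamhi and 17.3 and 14.7 CPM in Esamlo cells. Both NC_CD8 libraries were far above all 4 CD11b+ libraries, with a log2 difference of 5.3 ± 0.17 (adjusted p = 2.23e-08). Cd8b1, which encodes the beta chain of the CD8 heterodimer, was at 30.0 and 39.5 CPM in NC_CD8 cells, against 1.16 and 0.0619 CPM in Esamhi and 1.4 and 1.04 CPM in Esamlo cells. The log2 difference was 5.2 ± 0.54 (adjusted p = 0.000107). Itgam, the CD11b integrin chain, had 31.6 and 37.3 CPM in NC_CD8 cells, against 196 and 159.5 CPM in Esamhi and 183 and 206 CPM in Esamlo cells. It was lower in NC_CD8 cells by every library, at -2.55 ± 0.25 (adjusted p = 6.93e-05). Of the 50-base sequences of the Itgam transcripts, 66.3% also lie in Gm49368, an annotated gene that overlaps it on the same strand, so its level is uncertain, and how the authors' counting split such reads is not known. Cd8a lies at chr6:71373427-71379173, plus strand, and Itgam at chr7:128062640-128118491, plus strand (GRCm38).

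Cx3cr1, the receptor of fractalkine, was at 193 and 190.1 CPM in NC_CD8 cells, against 22.1 and 19.5 CPM in Esamhi and 187 and 98.5 CPM in Esamlo cells. Both NC_CD8 libraries were above all CD11b+ libraries, by a small margin over the Esamlo library of batch C and a wide one over both Esamhi libraries. The difference from the mean of both fractions was 1.7 ± 0.19 (adjusted p = 0.000147). Cd24a, a glycoprotein used to mark CD8+ dendritic cells, was higher in NC_CD8 cells at 1.95 ± 0.18 (adjusted p = 4.62e-05). Sirpa, an inhibitory receptor of CD11b+ dendritic cells, was lower at -1.13 ± 0.19 (adjusted p = 0.00239), with 532 and 514 CPM in NC_CD8 cells, against 1234 and 1099 CPM in Esamhi and 977 and 926 CPM in Esamlo cells. Cd4, carried by many Esam-high cells, was lower at -1.18 ± 0.21 (adjusted p = 0.00315). Esam itself, an adhesion molecule, had 14.6 and 14.5 CPM in NC_CD8 cells, against 69.2 and 56.4 CPM in Esamhi and 4.03 and 13.7 CPM in Esamlo cells, and NC_CD8 cells did not pass the test against the mean of both fractions (-0.83 ± 0.36, adjusted p = 0.193), although they were lower than Esamhi cells alone, at -2.22 ± 0.41 (adjusted p = 0.00492). Of the 12 tested genes of surface antigens used to sort such cells, 6 rose and 4 fell, and leaving out any 1 of the 6 libraries gave 6 higher and 4 or 5 lower.

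**Figure D2:**
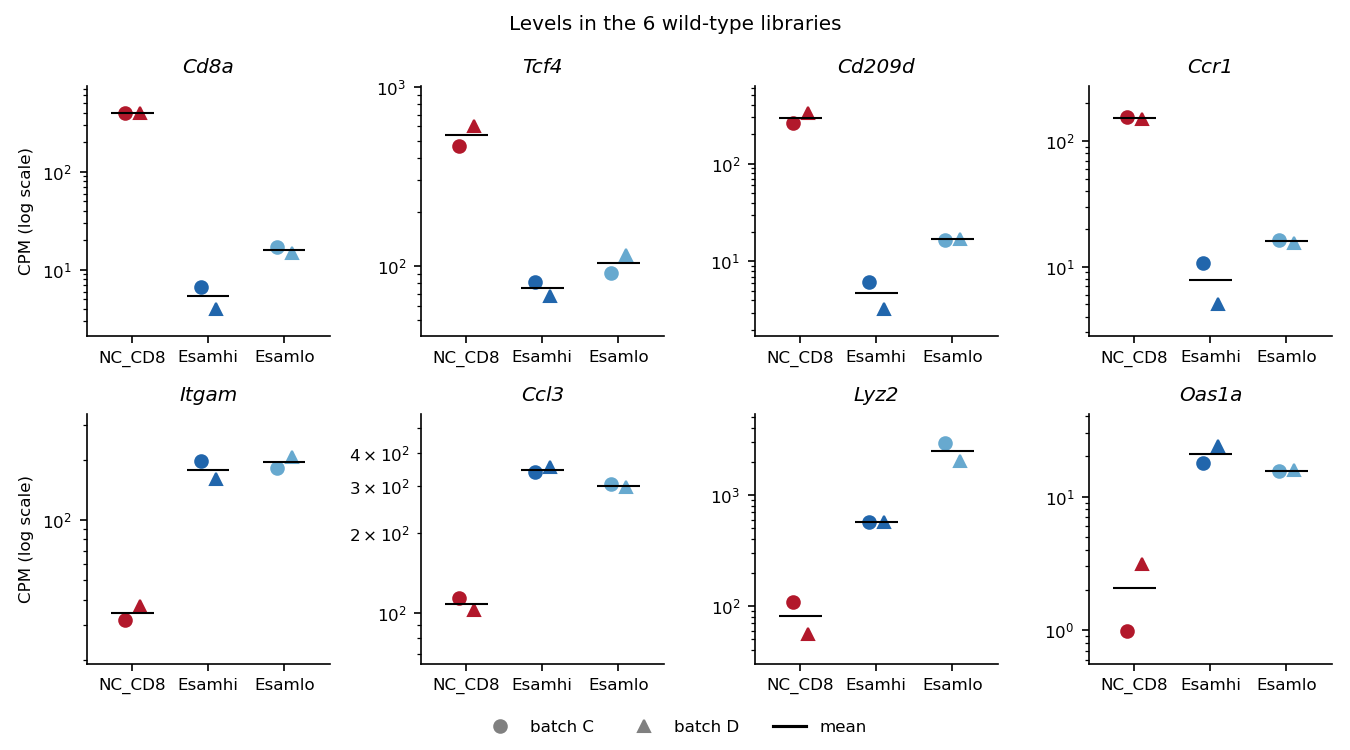
Levels of 8 genes in CPM (vertical axes, log scale) in the 2 libraries of each wild-type group, with circles for batch C, triangles for batch D and a line at the mean. Cd8a, Tcf4, Cd209d and Ccr1 were higher in both NC_CD8 libraries than in any CD11b+ library, and Itgam, Ccl3, Lyz2 and Oas1a were lower.

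Many genes of plasmacytoid dendritic cells were higher in NC_CD8 cells. Of 23 tested, 15 rose and 2 fell, with a median log2 difference of 2.07. When 1 of the 6 libraries was left out, 14 to 16 were higher and 0 to 2 lower, with none lower without the NC_CD8 library of batch C and 1 lower without that of batch D. Tcf4, the transcription factor that plasmacytoid cells require, had 466 and 604 CPM in NC_CD8 cells, against 81.5 and 68 CPM in Esamhi and 91.3 and 116 CPM in Esamlo cells. Both NC_CD8 libraries exceeded each CD11b+ library several times over, at 2.49 ± 0.17 (adjusted p = 7.12e-06). Runx2, a transcription factor needed for plasmacytoid cells to leave the bone marrow, was at 254 and 249 CPM in NC_CD8 cells, against 48.6 and 55 CPM in Esamhi and 57.2 and 59.6 CPM in Esamlo cells. Its difference was 2.07 ± 0.13 (adjusted p = 4.09e-06). Spib, an ETS factor of plasmacytoid cells, differed by 1.78 ± 0.22 (adjusted p = 0.000396).

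Surface proteins of plasmacytoid cells moved the same way. Siglech, a sialic acid-binding lectin used to mark them, had 237 and 308 CPM in NC_CD8 cells, against 19.2 and 2.78 CPM in Esamhi and 28.2 and 12.5 CPM in Esamlo cells. That is a difference of 4.09 ± 0.58 (adjusted p = 0.000896). Bst2 (tetherin, PDCA-1), another of their markers and an interferon-stimulated gene, was at 131 and 160.1 CPM in NC_CD8 cells, against 23.7 and 22.9 CPM in Esamhi and 36.6 and 35.7 CPM in Esamlo cells. This gave a difference of 2.21 ± 0.16 (adjusted p = 9.7e-06). Both NC_CD8 libraries lay far above the 4 CD11b+ libraries. Klra17, an Ly49-family receptor, differed by 3.82 ± 0.23 (adjusted p = 3.95e-06) and Lag3, an inhibitory receptor of MHC class II, by 2.86 ± 0.28 (adjusted p = 6.7e-05). Ly6c2 encodes Ly-6C, a surface protein of plasmacytoid cells and monocytes, and was at 111 and 196 CPM in NC_CD8 cells, against 2.17 to 13.7 CPM in the CD11b+ libraries (4.08 ± 0.54, adjusted p = 0.000558). Of its 50-base sequences 14.5% also occur in other genes, Ly6c1 among them. Atp1b1, a sodium pump subunit that plasmacytoid cells express, rose by 4.06 ± 0.37 (adjusted p = 4.62e-05), and Blnk, a signalling adaptor of B cells and plasmacytoid cells, by 4.01 ± 0.51 (adjusted p = 0.000458). The exons of Atp1b1 overlap those of Nme7 on the opposite strand over 18.7% of their bases, and whether the counting used strand is not known here. The members that fell were Tlr7, the endosomal receptor of single-stranded RNA, at -1.27 ± 0.24 (adjusted p = 0.00499), and Lair1, an inhibitory collagen receptor, at -0.6 ± 0.14 (adjusted p = 0.018). Their adjusted p was 0.0615 without the NC_CD8 library of batch C for Tlr7, and 0.122 without the NC_CD8 library of batch C and 0.101 without the NC_CD8 library of batch D for Lair1.

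The level of these genes in sorted plasmacytoid cells (PDC) of wild-type mice puts the difference in scale. The PDC mean is over batches A and B and the NC_CD8 mean over batches C and D, so subset and batch cannot be told apart in their ratio. The NC_CD8 mean was 44.9% of the PDC mean for Tcf4, 44.2% for Runx2 and 40.6% for Klra17. It was 11.6% for Bst2, 5.09% for Siglech, 12.7% for Spib, 14.9% for Blnk, 11.3% for Atp1b1 and 12% for Ly6c2. For Lag3 it was 112%. The PDC means themselves were 1190.0 CPM for Tcf4 and 5346 CPM for Siglech. Apart from Lag3, the genes named here stood above the CD11b+ level in NC_CD8 cells and below the PDC level. Batch B holds 1 wild-type library of each of these subsets, and in it Tcf4 was at 433 CPM in NC_CD8 cells, against 1267 CPM in PDC. Siglech was at 257 CPM in NC_CD8 cells, against 5242 CPM in PDC, and Lag3 at 69.4 CPM, against 84.3 CPM.

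Of 42 transcription factors of dendritic cells, 10 rose and 4 fell, with a median of 0.176. Without the NC_CD8 library of batch C, that of batch D or the Esamhi library of batch D, 5 were higher, and without the NC_CD8 library of batch D 2 were lower; with the batch as a block, 12 were higher and 8 lower. Besides Tcf4, Runx2 and Spib, the ones with the smallest adjusted p were Runx1 and Bach2. Runx1, a factor of blood cell development, was at 203 and 222 CPM in NC_CD8 cells, against 92.2 and 79.1 CPM in Esamhi and 124 and 116 CPM in Esamlo cells. The difference came to 0.95 ± 0.09 (adjusted p = 4.59e-05). Bach2, a repressor known from B and T lymphocytes, had 62.8 and 74.2 CPM in NC_CD8 cells, against 7.93 and 6.31 CPM in Esamhi and 29.6 and 19.1 CPM in Esamlo cells. Its log2 difference was 2.27 ± 0.22 (adjusted p = 5.79e-05). Klf2, a factor of quiescence and trafficking, fell by 1.12 ± 0.14 (adjusted p = 0.000326), and Cebpb, a factor of monocytes, was at -1.27 ± 0.2 (adjusted p = 0.0017). Exons of Cebpb overlap Tmem189 on the opposite strand over 20.7% of their bases. Batf3, which cDC1 require and other dendritic cells also express, was lower at -0.96 ± 0.2 (adjusted p = 0.0091), a call lost without the NC_CD8 library of batch D (adjusted p = 0.0965). Irf4, which CD11b+ cells depend on, had 284 and 372 CPM in NC_CD8 cells, against 213 and 304 CPM in Esamhi and 85.8 and 144 CPM in Esamlo cells. It did not pass the test (0.8 ± 0.36, adjusted p = 0.207), but its level was higher in batch D in every group, and with the batch as a block its adjusted p was 0.0292. Irf8, required by cDC1 and abundant in plasmacytoid cells, differed widely within the NC_CD8 and Esamlo groups, with 789 and 331 CPM in NC_CD8 cells, against 215 and 195 CPM in Esamhi and 970.1 and 400.0 CPM in Esamlo cells (0.46 ± 0.35, adjusted p = 0.491). Without the NC_CD8 library of batch C its difference was -0.26 (adjusted p = 0.801).

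Most genes that define cDC1 and cDC2 were not called. The 1 fall among the cDC1 genes is near the 4.87% called lower over all tested genes, of which 5.55% were called higher. Of 20 genes of cDC1 identity, 4 rose and 1 fell, with a median of 0.274. This count rested on single libraries: without the NC_CD8 library of batch C 2 were higher and 9 lower, and without that of batch D 7 were higher and none lower. The summed level of the list was 5121 and 2032 CPM in NC_CD8 cells, against 2359 and 2397 CPM in Esamhi and 5161 and 3164 CPM in Esamlo cells. The NC_CD8 library of batch C and the Esamlo library of batch C held the most. Xcr1, a chemokine receptor that defines cDC1, had 165 and 23.3 CPM in NC_CD8 cells, against 34.4 and 32.1 CPM in Esamhi and 108 and 70.1 CPM in Esamlo cells (0.66 ± 0.47, adjusted p = 0.46), and its mean in canonical CD8+ cells was 1122 CPM. Naaa, a lysosomal amidase of cDC1, had 469 and 90.2 CPM in NC_CD8 cells, against 128 and 112 CPM in Esamhi and 538 and 266 CPM in Esamlo cells (0.22 ± 0.45, adjusted p = 0.833). In both genes the NC_CD8 library of batch C was several times above that of batch D, and without it the difference turned to -1.31 (adjusted p = 0.00799) for Xcr1 and -1.37 (adjusted p = 0.0376) for Naaa. Cadm1, an adhesion molecule of cDC1 and plasmacytoid cells, rose by 1.54 ± 0.23 (adjusted p = 0.00129) with 218 and 114 CPM in NC_CD8 cells, against 33.2 and 33 CPM in Esamhi and 109 and 57 CPM in Esamlo cells. Clec9a, a receptor for dead cells, was at 97.1 and 58.4 CPM in NC_CD8 cells, against 14.9 and 15.3 CPM in Esamhi and 61.3 and 44.4 CPM in Esamlo cells and was called at 1.34 ± 0.23 (adjusted p = 0.00326), but not without the NC_CD8 library of batch C (adjusted p = 0.0586).

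Of 24 genes of cDC2 identity, 3 rose and 6 fell, with a median of -0.224. The members that rose were Ccr2, Clec12a and Clec10a, and each was higher in Esamlo than in Esamhi cells. Clec10a, a galactose-binding lectin, had 56.1 and 69 CPM in NC_CD8 cells, against 11.7 and 6.68 CPM in Esamhi and 119 and 50.1 CPM in Esamlo cells (1.06 ± 0.28, adjusted p = 0.0336), with an adjusted p of 0.0728 without the NC_CD8 library of batch C and 0.251 without the NC_CD8 library of batch D and 0.12 without the Esamhi library of batch D and 0.0539 without the Esamlo library of batch D. Apart from Itgam, Sirpa, Cd4 and Dtx1, the members that fell were Clec4a2, an inhibitory lectin (DCIR), at 34.2 and 28.3 CPM in NC_CD8 cells, against 79.7 and 73.9 CPM in Esamhi and 73.3 and 84.7 CPM in Esamlo cells (-1.44 ± 0.2, adjusted p = 0.00082), and Clec4a4, its close relative recognised by the antibody 33D1, at -1.65 ± 0.31 (adjusted p = 0.00579), which had an adjusted p of 0.0647 without the NC_CD8 library of batch D. Of the 50-base sequences of Clec4a4, 15.7% also occur in other genes. Genes of the Notch pathway did not move as a group. Calls over all tested genes were 5.55% higher and 4.87% lower. Of 19 tested receptors, ligands and targets, 3 rose and 1 fell, with a median of -0.0501 (3 and 3 with the batch as a block). None was lower without either NC_CD8 library or the Esamhi library of batch D, and 2 were without the Esamlo library of batch C. Notch3, a Notch receptor, was at 30.0 and 26.2 CPM in NC_CD8 cells, against 0.463 and 0.495 CPM in Esamhi and 1.16 and 0.986 CPM in Esamlo cells. The log2 difference was 5.16 ± 0.63 (adjusted p = 0.000319). Notch1 was higher by 2.01 ± 0.33 (adjusted p = 0.0024). The remaining rise was Dll4, a Notch ligand, with 6.53 and 24 CPM in NC_CD8 cells, against 1.39 to 3.34 CPM in the CD11b+ libraries (2.72 ± 0.78, adjusted p = 0.0456), whose adjusted p was 0.496 without the NC_CD8 library of batch D and 0.123 without the Esamhi library of batch C and 0.101 without the Esamhi library of batch D and 0.0744 without the Esamlo library of batch C and 0.116 without the Esamlo library of batch D. Dtx1, a target of Notch signalling in Esam-high cells, was lower, with 47.7 and 61.4 CPM in NC_CD8 cells, against 271 and 306 CPM in Esamhi and 39.6 and 99.7 CPM in Esamlo cells (-1.51 ± 0.37, adjusted p = 0.0224). Its adjusted p was 0.163 without the NC_CD8 library of batch C and 0.0934 without the NC_CD8 library of batch D and 0.0545 without the Esamhi library of batch D.

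The C-type lectins and Siglecs, receptors for sugars on microbes and on the body's own cells, moved strongly in both directions. Of 34 tested, 11 rose and 10 fell, with a median of -0.377. Without the NC_CD8 library of batch D 7 were higher and 6 lower. The CD209 family, relatives of human DC-SIGN that lie side by side on chromosome 8, showed the split within a single family. Cd209d was at 259 and 329.5 CPM in NC_CD8 cells, against 6.13 and 3.28 CPM in Esamhi and 16.7 and 17.1 CPM in Esamlo cells. That is a log2 difference of 4.93 ± 0.25 (adjusted p = 1.7e-06), and both NC_CD8 libraries exceeded each CD11b+ library more than 10-fold. Cd209e was also higher, at 134 and 176 CPM in NC_CD8 cells, against 6.89 and 7.55 CPM in Esamhi and 23.7 and 12.9 CPM in Esamlo cells (3.64 ± 0.27, adjusted p = 8.85e-06). Cd209b (SIGN-R1) went the other way, with 1.21 and 0.496 CPM in NC_CD8 cells, against 25.6 and 10.6 CPM in Esamhi and 41.9 and 28 CPM in Esamlo cells. Its difference was -4.94 ± 0.69 (adjusted p = 0.00082). None of the 50-base sequences of these 3 transcripts was found in another gene.

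Members of the Clec4a family, which includes inhibitory receptors of myeloid cells, were lower. Clec4a1 had 22.7 and 15.9 CPM in NC_CD8 cells, against 112 and 100.1 CPM in Esamhi and 150.2 and 178 CPM in Esamlo cells. That is a difference of -2.9 ± 0.21 (adjusted p = 8.85e-06). Clec4a3 had 23.4 and 11.1 CPM in NC_CD8 cells, against 47 and 36.8 CPM in Esamhi and 194 and 149 CPM in Esamlo cells. This gave a difference of -2.42 ± 0.34 (adjusted p = 0.00079), with its highest levels in Esamlo cells. Cd22, a Siglec best known as an inhibitory co-receptor of B cells, was at 41.2 and 21.1 CPM in NC_CD8 cells, against 273 and 236 CPM in Esamhi and 142 and 142 CPM in Esamlo cells (-2.73 ± 0.24, adjusted p = 3.18e-05). It was highest in Esamhi cells and lowest in both NC_CD8 libraries. Clec1a, a lectin of myeloid and endothelial cells, was higher at 0.92 ± 0.16 (adjusted p = 0.00304).

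Among the receptors that guide migration, 5 of 17 tested rose and 2 fell, with a median of 0.545 (4 or 5 higher and 1 to 3 lower when 1 library was left out, the fewest lower without the NC_CD8 library of batch D; 5 and 4 with the batch as a block). Ccr1, a receptor of Ccl3 among other chemokines, was at 155 and 151 CPM in NC_CD8 cells, against 10.8 and 5.01 CPM in Esamhi and 16.3 and 15.5 CPM in Esamlo cells. Both NC_CD8 libraries lay well above all CD11b+ libraries, at 3.65 ± 0.38 (adjusted p = 0.000108). Ccr9, which guides cells to the gut and marks plasmacytoid cells, was at 72.6 and 64.1 CPM in NC_CD8 cells, against 15 and 10.3 CPM in Esamhi and 32.4 and 11.8 CPM in Esamlo cells. The difference came to 1.92 ± 0.27 (adjusted p = 0.000794). Ccrl2, an atypical receptor that presents chemerin, was lower at -1.91 ± 0.29 (adjusted p = 0.00149), with 174 and 149 CPM in NC_CD8 cells, against 722 and 694 CPM in Esamhi and 376 and 498 CPM in Esamlo cells. Cxcr4, which holds cells in the bone marrow, was lower at -1.19 ± 0.21 (adjusted p = 0.0031), with an adjusted p of 0.0522 without the NC_CD8 library of batch D. Ccr7, which takes mature dendritic cells to lymph nodes, had 305 and 657 CPM in NC_CD8 cells, against 824 and 2088 CPM in Esamhi and 352 and 841 CPM in Esamlo cells. It was not called (-1.08 ± 0.66, adjusted p = 0.368), but each group held more of it in batch D, and with the batch as a block NC_CD8 cells were lower at an adjusted p of 6.25e-05.

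Chemokine ligands, where they were called, were mostly lower in NC_CD8 cells. Of 21 tested, 1 rose, 7 fell and 13 did not pass the test, with a median of -1.68; 4 were lower without the NC_CD8 library of batch C and 3 without that of batch D. Ccl3 (MIP-1 alpha), which attracts monocytes, NK cells and T cells, had 114 and 103 CPM in NC_CD8 cells, against 339 and 354 CPM in Esamhi and 306 and 298 CPM in Esamlo cells. The 4 CD11b+ libraries lay close together and well above both NC_CD8 libraries, at -1.7 ± 0.21 (adjusted p = 0.000317). Ccl3 lies at chr11:83647844-83649355, minus strand (GRCm38). Ccl2, which attracts monocytes, was at 3.46 and 2.41 CPM in NC_CD8 cells, against 6.02 and 9.28 CPM in Esamhi and 15 and 16.1 CPM in Esamlo cells. Its log2 difference was -2.01 ± 0.33 (adjusted p = 0.00236). Ccl6, a chemokine of myeloid cells, had 33.9 and 13.3 CPM in NC_CD8 cells, against 49.7 and 33.5 CPM in Esamhi and 230.1 and 187 CPM in Esamlo cells. The log2 difference was -2.1 ± 0.32 (adjusted p = 0.00145) with overlap between the NC_CD8 and Esamhi libraries. Cxcl16, a transmembrane chemokine, and Ccl5, a T cell attractant, were lower, at -1.86 ± 0.37 (adjusted p = 0.00705) and -1.72 ± 0.34 (adjusted p = 0.0074). Their adjusted p was 0.0564 without the NC_CD8 library of batch C and 0.0763 without the NC_CD8 library of batch D for Cxcl16, and 0.0557 without the NC_CD8 library of batch C and 0.082 without the NC_CD8 library of batch D for Ccl5. Exons of Cxcl16 overlap those of Zmynd15 on the opposite strand over 18.3% of their bases.

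The chemokine that rose was Xcl1, which activated T and NK cells make. It had 32.4 and 19.3 CPM in NC_CD8 cells, against 1.45 and 1.18 CPM in Esamhi and 2.56 and 2.2 CPM in Esamlo cells (3.74 ± 0.56, adjusted p = 0.00129), but the NC_CD8 library of batch B, which was not used in the comparison, held 0.672 CPM. Crtam, an adhesion receptor of activated T and NK cells, had 31 and 14 CPM in NC_CD8 cells, against 0.868 and 0 CPM in Esamhi and 1.83 and 1.04 CPM in Esamlo cells (4.69 ± 0.68, adjusted p = 0.000964) and 0 CPM in the batch B library. Markers of T cells moved the same way in these libraries and their values are given with the other cell types; their part in both differences was not tested.

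Cytokines and ligands of the tumour necrosis factor (TNF) family gave 1 rise and 9 falls among 28 tested, with a median of -0.731; 6 to 8 were lower when 1 library was left out, and 2 were higher without the Esamlo library of batch C. The rise was Tnfsf9 (4-1BB ligand), a costimulator of T cells, at 353 and 306 CPM in NC_CD8 cells, against 46 and 48.3 CPM in Esamhi and 190.1 and 129 CPM in Esamlo cells (1.81 ± 0.17, adjusted p = 5.79e-05). It was lowest in Esamhi cells and intermediate in Esamlo cells. Tnf, a central cytokine of inflammation, had 29 and 20.1 CPM in NC_CD8 cells, against 101 and 119.8 CPM in Esamhi and 67.9 and 57.1 CPM in Esamlo cells. Its difference was -1.88 ± 0.28 (adjusted p = 0.00115). Tnfsf14 (LIGHT) was at 3.18 and 1.13 CPM in NC_CD8 cells, against 9.52 to 26.3 CPM in the CD11b+ libraries (-2.97 ± 0.4, adjusted p = 0.000606). Ebi3, a subunit shared by interleukin-27 and interleukin-35, was lower at -1.13 ± 0.13 (adjusted p = 0.00019), Tnfsf8 (CD30 ligand) at -2.0 ± 0.29 (adjusted p = 0.000898) and Tnfsf13b (BAFF, a survival factor of B cells) at -3.56 ± 0.51 (adjusted p = 0.000964). The exons of Ebi3 overlap Gm16712 on the opposite strand over 23.4% of their bases, and those of Tnfsf9 overlap Gm11110 over 14.9%. Il1b, the inflammatory cytokine interleukin-1 beta, had 905 and 1363 CPM in NC_CD8 cells, against 2541 and 3014 CPM in Esamhi and 2897 and 3358 CPM in Esamlo cells. It fell by 1.5 ± 0.33 (adjusted p = 0.0121), a call lost without the NC_CD8 library of batch C (adjusted p = 0.123).

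Costimulators and checkpoint ligands were mixed, with 3 rises and 3 falls among 19 tested and a median of -0.405. With the batch as a block, 3 rose and 7 fell, and leaving out 1 library gave 2 or 3 higher and 1 to 5 lower, the fewest without the NC_CD8 library of batch D and the most without the Esamlo library of batch D. Fscn1 (fascin), which bundles actin in mature dendritic cells, was at 355 and 529.7 CPM in NC_CD8 cells, against 154 and 199 CPM in Esamhi and 57.9 and 65.9 CPM in Esamlo cells. That is a difference of 1.96 ± 0.28 (adjusted p = 0.000991) with the lowest levels in Esamlo cells. Pdcd1lg2 (PD-L2), a ligand of PD-1, was at 12.2 and 10.6 CPM in NC_CD8 cells, against 42.6 and 33.7 CPM in Esamhi and 17.6 and 24.6 CPM in Esamlo cells (-1.44 ± 0.25, adjusted p = 0.00292). Havcr2 (TIM-3) was lower at -1.23 ± 0.23 (adjusted p = 0.00454), with an adjusted p of 0.0587 without the NC_CD8 library of batch D, and Icosl (ICOS ligand) higher by 0.73 ± 0.14 (adjusted p = 0.00499), with 0.052 without the NC_CD8 library of batch D.

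Of 15 genes of MHC class II presentation 1 rose and 3 fell, with a median of -0.1, and of 18 of MHC class I presentation 2 rose and 1 fell, with a median of -0.146 (3 and 4 with the batch as a block). Over all tested genes 5.55% were higher and 4.87% lower. No more than 1 class II gene was higher and 0 to 4 were lower when 1 library was left out, with none lower without the NC_CD8 library of batch C and none higher without that of batch D. For class I, 0 to 2 were higher, with none without either NC_CD8 library or either Esamhi library and 1 without the Esamlo library of batch D, and 0 to 2 were lower, with none without the NC_CD8 library or the Esamhi library of batch D and 2 without the NC_CD8 library of batch C. Cd74, the invariant chain of class II, had 28787 and 31285 CPM in NC_CD8 cells, against 30419 and 30895 CPM in Esamhi and 36057 and 41005 CPM in Esamlo cells. The NC_CD8 libraries overlapped the Esamhi libraries, and Cd74 was called lower at -0.32 ± 0.08 (adjusted p = 0.0273), with an adjusted p of 0.205 without the NC_CD8 library of batch C and 0.0665 without the Esamhi library of batch D. H2-Eb2, a class II beta chain gene, had 18.8 and 21.8 CPM in NC_CD8 cells, against 101 and 131 CPM in Esamhi and 25.8 and 62.3 CPM in Esamlo cells (-1.95 ± 0.38, adjusted p = 0.00614), and its adjusted p was 0.0654 without the NC_CD8 library of batch C and 0.0521 without the NC_CD8 library of batch D. Ifi30 (GILT), a reductase of lysosomal antigen processing, was higher by 0.44 ± 0.09 (adjusted p = 0.0109), with an adjusted p of 0.168 without the NC_CD8 library of batch D.

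Receptors that detect microbes and nucleic acids were mostly lower where they were called. Of 26 tested, 1 rose and 11 fell, with a median of -0.649; when 1 library was left out, 8 to 12 were lower and 0 to 2 higher (none higher without the NC_CD8 library of batch D and 2 without the Esamlo library of batch C), and with the batch as a block 14 were lower and 2 higher. Ifih1 (MDA5), a cytosolic receptor of double-stranded RNA, had 16.6 and 15.7 CPM in NC_CD8 cells, against 47 and 50.3 CPM in Esamhi and 32.5 and 47.3 CPM in Esamlo cells. This gave a difference of -1.57 ± 0.2 (adjusted p = 0.000489). Nod2, a sensor of bacterial peptidoglycan fragments, was at 7.41 and 5.95 CPM in NC_CD8 cells, against 33.9 and 38.1 CPM in Esamhi and 23.1 and 33.8 CPM in Esamlo cells. The difference came to -2.38 ± 0.39 (adjusted p = 0.00211). Tlr1 and Tlr2 encode the partners of a receptor for bacterial lipoproteins and were lower, at -1.41 ± 0.17 (adjusted p = 0.000367) and -0.96 ± 0.15 (adjusted p = 0.00189). Of the 50-base sequences of Tlr1, 15.4% also occur in other genes, its neighbour Tlr6 among them. Aim2, a sensor of cytosolic DNA, fell by 0.62 ± 0.1 (adjusted p = 0.00169). The gene that rose was Tmem173 (STING), the adaptor of cytosolic DNA sensing, by 0.53 ± 0.1 (adjusted p = 0.00634), with an adjusted p of 0.0712 without the NC_CD8 library of batch D.

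Interferon-stimulated genes that were called were lower in NC_CD8 cells, apart from Bst2. Of 29 tested, 13 fell, 1 rose and 15 were not called, with a median of -1.52. When 1 library was left out, 8 to 12 were lower, the fewest without the NC_CD8 library of batch D, and with the batch as a block 18 were lower. Oas1a and Oas1g, enzymes that switch on RNA decay when they meet double-stranded RNA, had the smallest adjusted p after Bst2. Oas1a was at 0.988 and 3.12 CPM in NC_CD8 cells, against 17.9 and 23.7 CPM in Esamhi and 15.6 and 15.7 CPM in Esamlo cells. Its log2 difference was -3.28 ± 0.38 (adjusted p = 0.000225). Oas1g was at 0.768 and 0.921 CPM in NC_CD8 cells, against 7.35 and 8.29 CPM in Esamhi and 5.43 and 5.22 CPM in Esamlo cells. The log2 difference was -3.05 ± 0.28 (adjusted p = 4.65e-05). Both genes share sequence, with 57.6% of the 50-base sequences of Oas1a and 45.7% of those of Oas1g found in a relative, so their separate levels are uncertain. Zbp1, a sensor of Z-form nucleic acids, was at 3.18 and 3.05 CPM in NC_CD8 cells, against 19.3 and 20.9 CPM in Esamhi and 21.8 and 21.4 CPM in Esamlo cells. Its difference was -2.86 ± 0.39 (adjusted p = 0.00075). Rtp4, a chaperone of membrane receptors, had 2.8 and 1.42 CPM in NC_CD8 cells, against 15.7 and 13.6 CPM in Esamhi and 9.71 and 17.7 CPM in Esamlo cells. That is a difference of -2.86 ± 0.4 (adjusted p = 0.00082). In all 4 of these genes each NC_CD8 library was below each CD11b+ library. Isg15, a ubiquitin-like protein, had 5.05 and 8.36 CPM in NC_CD8 cells, against 26 and 35.9 CPM in Esamhi and 12 and 27.1 CPM in Esamlo cells (-2.01 ± 0.51, adjusted p = 0.0264), with an adjusted p of 0.194 without the NC_CD8 library of batch C and 0.0886 without the NC_CD8 library of batch D and 0.0637 without the Esamhi library of batch D and 0.0595 without the Esamlo library of batch D.

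Interferon acts on such genes through the interferon-stimulated response element (ISRE) in their promoters, which the factor ISGF3 binds. The promoter windows in RefSeq (GRCm38.p6; 250 bases before to 50 after the gene's start) were searched on both strands for the letters GAAANNGAAA, where N is any base. Of the 29 genes, 21 had a window, and 12 of these held the letters, against 3.99% of 27025 genes and 3.44% of 32851 windows of the same length. By call, the letters were in 7 of 10 genes that fell, in the 1 that rose and in 4 of 10 that were not called. The list was made of genes that respond to interferon, so its larger share over all genes was largely fixed by that choice. That share says nothing about the difference between NC_CD8 and CD11b+ cells. The 150 bases before the start are shown for 3 of the genes that fell, Oas1a, Oas1g and Isg15, and for Bst2, which rose. The call of Isg15 was lost without any 1 of 4 libraries, as given with its values. They are shown because Bst2 moved against the other called genes of the list, and capitals mark the matches, which overlap each other in each promoter.
Oas1a: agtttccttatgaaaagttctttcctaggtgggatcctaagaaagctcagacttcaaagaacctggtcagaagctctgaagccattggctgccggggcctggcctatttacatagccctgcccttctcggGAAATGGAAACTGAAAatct
Oas1g: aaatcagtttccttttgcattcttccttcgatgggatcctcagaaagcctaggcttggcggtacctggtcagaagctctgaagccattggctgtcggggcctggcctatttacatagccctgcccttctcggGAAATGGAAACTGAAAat
Isg15: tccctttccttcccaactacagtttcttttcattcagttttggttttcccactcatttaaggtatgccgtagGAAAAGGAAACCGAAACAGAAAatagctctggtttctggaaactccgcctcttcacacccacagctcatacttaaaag
Bst2: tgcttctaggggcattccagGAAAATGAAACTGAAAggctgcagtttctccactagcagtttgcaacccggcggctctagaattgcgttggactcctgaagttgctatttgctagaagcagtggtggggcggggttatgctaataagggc
They lie on the minus strand at chr5:120907526-120907675 for Oas1a, chr5:120887614-120887763 for Oas1g, chr4:156200819-156200968 for Isg15 and chr8:71537473-71537622 for Bst2. The matches begin 20 and 14 bases before the start of Oas1a, 18 and 12 before that of Oas1g, 78, 72 and 66 before that of Isg15, and 130 and 124 before that of Bst2. All lie on the strand of the gene. Genes that fell and the gene that rose thus held the same letters, and a match describes the sequence, not a bound site. In the plasmacytoid list the letters CACCTG, a form of the E-box that proteins of the TCF4 family can bind, were found on either strand in 5 of the 16 genes with a window, or 31.2%, against 22.6% of all genes, and in 4 of the 12 that rose.

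Genes of monocytes and macrophages gave 9 falls and 3 rises among 22 tested and a median of -0.513; leaving out 1 library gave 7 to 10 lower and 3 or 4 higher. Lyz2 (lysozyme M), an enzyme that digests bacterial walls and a mark of myeloid cells, had 108 and 55.3 CPM in NC_CD8 cells, against 573 and 573 CPM in Esamhi and 2953 and 2029.6 CPM in Esamlo cells. The difference was -4.0 ± 0.29 (adjusted p = 8.85e-06), and the Esamlo libraries held the most. Lyz1, its near copy, was at 14.8 and 6.59 CPM in NC_CD8 cells, against 75 and 65.3 CPM in Esamhi and 343 and 224 CPM in Esamlo cells (-3.83 ± 0.29, adjusted p = 1.3e-05). Of the 50-base sequences of Lyz2 15.4% and of those of Lyz1 16.1% also occur in another gene, so reads may be split between both. Adgre1 (F4/80) was at 55.9 and 35.9 CPM in NC_CD8 cells, against 336 and 309 CPM in Esamhi and 190.4 and 229.6 CPM in Esamlo cells. This gave a difference of -2.63 ± 0.28 (adjusted p = 0.000118) with the highest levels in Esamhi cells. Cd68, a lysosomal protein of phagocytes, was lower at -1.05 ± 0.11 (adjusted p = 9.46e-05), and Cd300ld, an activating receptor of myeloid cells, at -1.9 ± 0.24 (adjusted p = 0.000371). The rises in this list were Ccr2, Clec12a and Ly6c2, which the lists of other cells also hold.

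Of 7 genes of the phagocyte oxidase, which makes superoxide to kill microbes, 4 fell and 1 rose, with a median of -0.643; 3 or 4 were lower when 1 library was left out, and none was higher without the NC_CD8 library of batch D. The subunits went apart. Ncf4 (p40phox), a cytosolic subunit, had 61.3 and 40.3 CPM in NC_CD8 cells, against 188 and 193 CPM in Esamhi and 133 and 177 CPM in Esamlo cells. The difference came to -1.89 ± 0.19 (adjusted p = 7.41e-05). Rac2, the small GTPase of the complex, fell by 1.07 ± 0.14 (adjusted p = 0.000614). Cybb (gp91phox), the membrane subunit that carries electrons, was at 891 and 1063 CPM in NC_CD8 cells, against 435 and 402 CPM in Esamhi and 753 and 802 CPM in Esamlo cells and rose by 0.66 ± 0.14 (adjusted p = 0.00957), with an adjusted p of 0.151 without the NC_CD8 library of batch D.

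Adhesion molecules and lipid mediators changed in single genes. For scale, 5.55% of all tested genes were higher and 4.87% lower, and the 1 fall among 14 Fc receptors is near that share. Of 31 integrins and other adhesion genes 5 rose and 5 fell, with a median of -0.172; when 1 library was left out, 3 or 4 were higher, the fewest without either NC_CD8 library or the Esamhi library of batch C, and 3 to 8 lower, the fewest without either NC_CD8 library and the most without the Esamlo library of batch D. Itgb3, an integrin chain that pairs with the alpha V chain, was higher, with 103 and 129 CPM in NC_CD8 cells, against 39.8 and 43.4 CPM in Esamhi and 20.7 and 24.9 CPM in Esamlo cells (1.8 ± 0.32, adjusted p = 0.00372; adjusted p = 0.0521 without the NC_CD8 library of batch D). Itgax (CD11c), the integrin chain by which mouse dendritic cells are usually recognised, was abundant in all libraries, with 589 and 620.0 CPM in NC_CD8 cells, against 846 and 853 CPM in Esamhi and 699.6 and 634 CPM in Esamlo cells. It was called lower at -0.44 ± 0.09 (adjusted p = 0.00919), but not without the NC_CD8 library of batch C (adjusted p = 0.0977). Of 20 genes of lipid mediators 2 rose and 5 fell, with a median of -0.243, and 1 fell without the NC_CD8 library of batch D and 3 without the Esamhi library of batch C. Ptgir, the prostacyclin receptor, was at 20.6 and 19.4 CPM in NC_CD8 cells, against 0.174 and 0.804 CPM in Esamhi and 9.95 and 4.06 CPM in Esamlo cells (3.32 ± 0.51, adjusted p = 0.00145), and Alox5, which starts leukotriene synthesis, was higher by 2.09 ± 0.4 (adjusted p = 0.00552). Ptger3, a receptor of prostaglandin E2, was at 10.4 and 8.79 CPM in NC_CD8 cells, against 73.8 and 54.3 CPM in Esamhi and 42.6 and 37.8 CPM in Esamlo cells. Its log2 difference was -2.52 ± 0.34 (adjusted p = 0.00061). Of 14 Fc receptors none rose and 1 fell (2 and 3 with the batch as a block; 0 to 2 in each direction when 1 library was left out, with none lower without the NC_CD8 library of batch D, 2 lower without that of batch C, and 2 higher and 2 lower without the Esamlo library of batch C), beside a median of -0.0741.

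**Figure D3:**
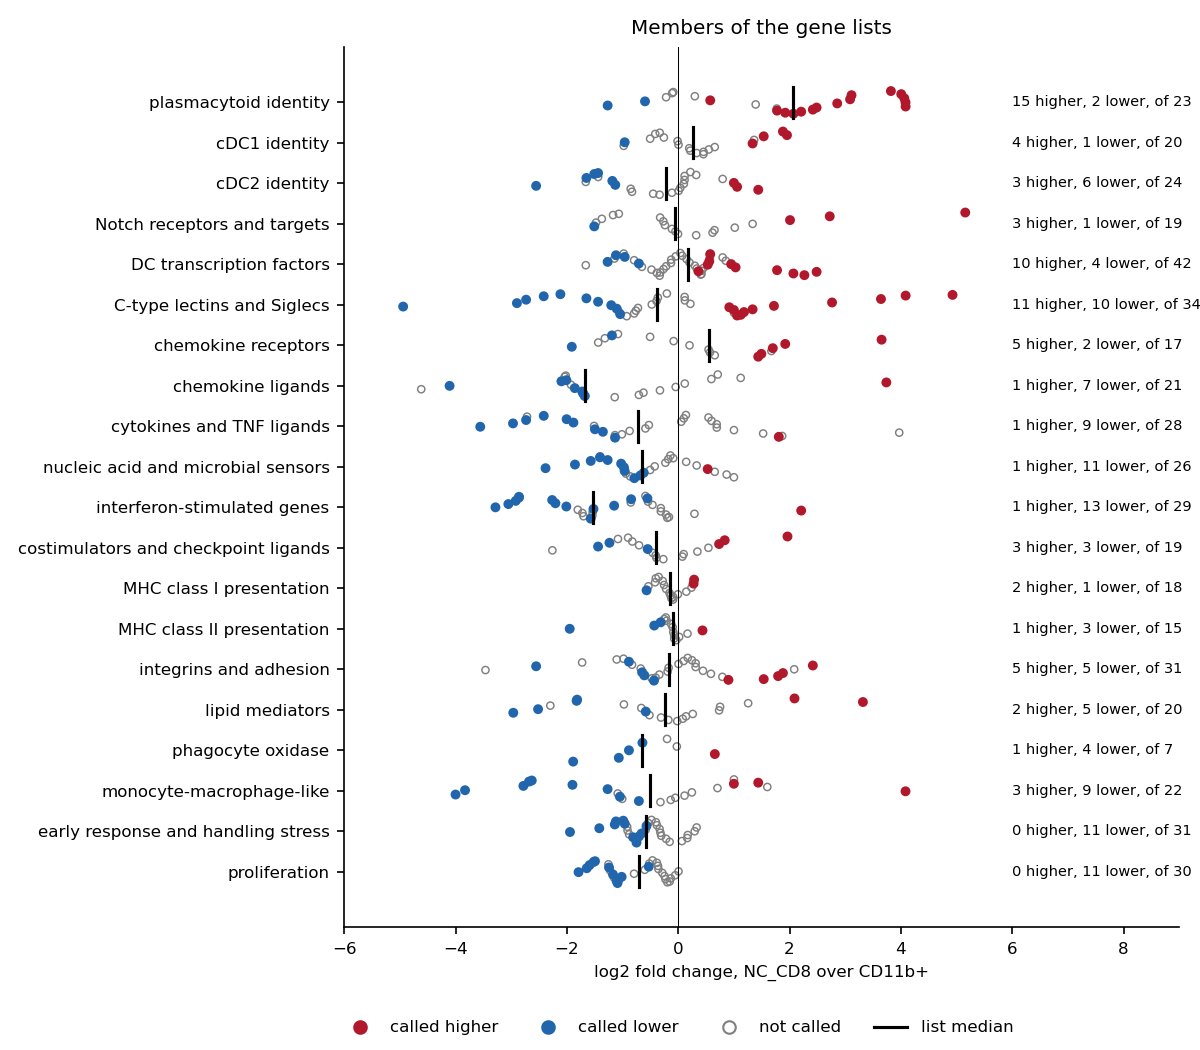
Log2 difference of NC_CD8 over CD11b+ wild-type cells (horizontal axis) for each tested member of 20 gene lists (rows), with red for members called higher, blue for members called lower, open circles for the rest and a bar at the list's median. The medians of chemokine ligands (-1.68) and interferon-stimulated genes (-1.52) lie to the left and that of plasmacytoid identity (2.07) to the right.

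The largest called differences, among genes with at least 10 CPM in the higher group, brought in genes outside the lists. On the higher side, behind Cd8a, Lefty1 had 21.3 and 31.3 CPM in NC_CD8 cells, against 0.405 and 0.186 CPM in Esamhi and 2.38 and 0.464 CPM in Esamlo cells (5.22 ± 0.81, adjusted p = 0.00154). It encodes an extracellular inhibitor of Nodal signalling, known from left-right patterning of the embryo. Of its 50-base sequences 17.9% also occur in Lefty2. Ptprf (LAR), a receptor tyrosine phosphatase, was at 59.4 and 90.7 CPM in NC_CD8 cells, against 0.926 and 1.36 CPM in Esamhi and 2.62 and 4.58 CPM in Esamlo cells. The log2 difference was 5.08 ± 0.45 (adjusted p = 4e-05). Cyp7b1, a hydroxylase of oxysterols that breaks down the ligand of the migration receptor EBI2, was at 32 and 42.2 CPM in NC_CD8 cells, against 0.752 and 0.928 CPM in Esamhi and 1.95 and 1.62 CPM in Esamlo cells. Its difference was 4.8 ± 0.46 (adjusted p = 6.34e-05). Its means in PDC and canonical CD8+ cells were 1.47 and 0.047 CPM. Ednrb, an endothelin receptor, was likewise at 6.47 and 14 CPM in NC_CD8 cells, against 0.183 to 0.522 CPM in the CD11b+ libraries (4.9 ± 0.89, adjusted p = 0.00439), with means of 0.425 CPM in PDC and 0.76 CPM in canonical CD8+ cells. Rgs7bp, a regulator of G protein signalling complexes, differed by 5.08 ± 0.39 (adjusted p = 1.32e-05), Itm2a, a membrane protein known from T cells, by 4.44 ± 0.53 (adjusted p = 0.000278), Il1rl2, the receptor of interleukin-36, by 4.42 ± 0.52 (adjusted p = 0.000252), and Myzap, a junction protein of heart muscle, by 4.23 ± 0.52 (adjusted p = 0.000367). Ephb6, an ephrin receptor without kinase activity, differed by 4.11 ± 0.91 (adjusted p = 0.0149), with an adjusted p of 0.0539 without the NC_CD8 library of batch C and 0.084 without the NC_CD8 library of batch D. The immunoglobulin segment Igkv4-55 rests on 1 library, with 3.29 and 33.7 CPM in NC_CD8 cells, against 0 to 0.868 CPM in the CD11b+ libraries. It was called at 4.97 ± 1.3 (adjusted p = 0.0309), but its adjusted p was 0.516 without the NC_CD8 library of batch D and 0.104 without the Esamhi library of batch D and 0.068 without the Esamlo library of batch C and 0.0978 without the Esamlo library of batch D, and 53.3% of its 50-base sequences occur in related segments.

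On the lower side, Mmp12 (macrophage elastase) had 26.6 and 33.5 CPM in NC_CD8 cells, against 709.7 and 584 CPM in Esamhi and 514 and 655 CPM in Esamlo cells. That is a difference of -4.47 ± 0.41 (adjusted p = 4.65e-05). The ranges of the Esamlo and Esamhi fractions overlapped, and each CD11b+ library was many times above both NC_CD8 libraries. H2-M2, a non-classical MHC class I gene, was at 17.4 and 15.3 CPM in NC_CD8 cells, against 338 and 342 CPM in Esamhi and 159 and 237 CPM in Esamlo cells. This gave a difference of -4.11 ± 0.29 (adjusted p = 8.43e-06). Ehf, an ETS transcription factor best known from epithelia, had 5.38 and 3.33 CPM in NC_CD8 cells, against 65.6 and 52.2 CPM in Esamhi and 63.1 and 57.5 CPM in Esamlo cells (-3.88 ± 0.28, adjusted p = 9.19e-06), and Krt80, a keratin, 4.39 and 5.17 CPM in NC_CD8 cells, against 62.7 and 43 CPM in Esamhi and 77.5 and 59.8 CPM in Esamlo cells (-3.77 ± 0.21, adjusted p = 3.11e-06). Both transcripts were present in all 4 CD11b+ libraries, and for both the ranges of the Esamlo and Esamhi fractions overlapped. Cd101, an inhibitory receptor of myeloid and T cells, differed by -3.37 ± 0.47 (adjusted p = 0.000794), Skint3, of a butyrophilin-like family, by -3.46 ± 0.45 (adjusted p = 0.00054), Scel, a protein of the cornified envelope, by -3.62 ± 0.5 (adjusted p = 0.00145), and Slc44a5, a choline transporter-like protein, by -4.27 ± 0.6 (adjusted p = 0.000852). Ear2, an eosinophil-associated ribonuclease, was at 4.94 and 1.49 CPM in NC_CD8 cells, against 20.9 to 49.4 CPM in the CD11b+ libraries (-3.45 ± 0.38, adjusted p = 0.000155), and 41.5% of its 50-base sequences occur in related genes. The gene given next, Mmp9, is not outside the lists but a member of the neutrophil list. Mmp9 (gelatinase B) had 10.5 and 4.75 CPM in NC_CD8 cells, against 123 and 107 CPM in Esamhi and 23 and 42 CPM in Esamlo cells (-3.12 ± 0.65, adjusted p = 0.00915), a call lost without the NC_CD8 library of batch D (adjusted p = 0.112).

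Genes of cell division and of the early response to stimulation were lower where they were called. Of 30 proliferation genes none rose and 11 fell, with a median of -0.696, but none was called without the NC_CD8 library of batch D and 6 without the Esamhi library of batch D. Mki67, a marker of dividing cells, was at 44.2 and 37.9 CPM in NC_CD8 cells, against 70.7 and 113 CPM in Esamhi and 69.4 and 73.5 CPM in Esamlo cells (-1.11 ± 0.23, adjusted p = 0.0101), with an adjusted p of 0.0504 without the NC_CD8 library of batch C and 0.113 without the NC_CD8 library of batch D. Kif11, a motor of the mitotic spindle, was lower at -1.59 ± 0.28 (adjusted p = 0.00326), with an adjusted p of 0.0547 without the NC_CD8 library of batch D. Of 31 early response genes, which can be switched on by the handling of cells, none rose and 11 fell, with a median of -0.584; 6 were lower without the NC_CD8 library of batch D, and 19 with the batch as a block. Egr2, a zinc finger transcription factor, had 60.1 and 27.4 CPM in NC_CD8 cells, against 269.8 and 198 CPM in Esamhi and 89.7 and 113 CPM in Esamlo cells (-1.94 ± 0.28, adjusted p = 0.000869). Dusp1, a phosphatase of MAP kinases, was lower at -0.99 ± 0.14 (adjusted p = 0.000992) and Klf6, another zinc finger factor, was at -0.75 ± 0.12 (adjusted p = 0.00227).

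Each CD11b+ fraction alone gave a similar number of calls in both directions. Against Esamhi cells 881 genes were higher in NC_CD8 cells (5.08%) and 857 lower (4.94%), and against Esamlo cells 555 were higher (3.2%) and 632 lower (3.64%). Both comparisons share the NC_CD8 libraries. The number of calls against Esamhi cells was 778 without the Esamhi library of batch D, 995 without that of batch C, 905 without the NC_CD8 library of batch D and 1089 without that of batch C. Against Esamlo cells it was 455 without the NC_CD8 library of batch D and 666 without the Esamlo library of batch D, and 2039 with the batch as a block. Between the fractions themselves, 405 genes were higher (2.34%) and 186 lower (1.07%) in Esamlo than in Esamhi cells. This count rested on single libraries: the number of calls was 91 without the Esamhi library of batch D, 116 without that of batch C, 298 without the Esamlo library of batch C and 27 with the 6 wild-type libraries alone, against 1310 with the batch as a block. Cd8a, Tcf4, Itgam and Ccl3 were called against both. The log2 difference was 6.09 for Cd8a, 2.73 for Tcf4, -2.48 for Itgam and -1.8 for Ccl3 against Esamhi cells. Against Esamlo cells it was 4.5, 2.24, -2.63 and -1.61 for the same genes in that order.

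Some genes differed between NC_CD8 and Esamhi cells and did not pass the test against Esamlo cells, and for these the difference between the fractions was tested as well. Ccr2, the receptor that draws monocytes from the marrow, was at 421 and 477 CPM in NC_CD8 cells, against 73.1 and 56.8 CPM in Esamhi and 473 and 253 CPM in Esamlo cells. Its log2 difference was 2.68 ± 0.23 (adjusted p = 3.45e-05) against Esamhi and 0.19 ± 0.22 (adjusted p = 0.668) against Esamlo cells, and Esamlo cells were above Esamhi cells by 2.49 ± 0.23 (adjusted p = 0.00045). Without the Esamlo library of batch C the adjusted p against Esamlo cells was 0.0467 for Ccr2 and 0.022 for Cx3cr1. Clec12a, an inhibitory receptor for uric acid crystals, had 209.7 and 188 CPM in NC_CD8 cells, against 45.8 and 39 CPM in Esamhi and 252 and 147 CPM in Esamlo cells. It differed by 2.12 ± 0.19 (adjusted p = 4.64e-05) and -0.12 ± 0.18 (adjusted p = 0.768) against Esamhi and Esamlo cells, and by 2.24 ± 0.19 (adjusted p = 0.000272) between Esamlo and Esamhi cells. Cx3cr1 differed by 3.09 ± 0.24 (adjusted p = 2.67e-05) and 0.31 ± 0.22 (adjusted p = 0.47), and by 2.78 ± 0.24 (adjusted p = 0.000272) between the fractions. Clec10a differed by 2.66 ± 0.36 (adjusted p = 0.000709) from Esamhi and by -0.54 ± 0.33 (adjusted p = 0.383) from Esamlo cells, and by 3.2 ± 0.37 (adjusted p = 0.00142) between the fractions. Esam, lower in NC_CD8 than in Esamhi cells, was at 0.56 ± 0.41 (adjusted p = 0.491) against Esamlo cells and -2.77 ± 0.42 (adjusted p = 0.00579) between the fractions, and without the Esamlo library of batch D it was higher in NC_CD8 than in Esamlo cells at an adjusted p of 0.00847.

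Other genes set NC_CD8 cells apart from Esamlo cells more than from Esamhi cells. For Ltb4r1, given last, this rests on its levels in CPM, since no difference from each fraction alone is given. Ace, the angiotensin-converting enzyme, was at 6.26 and 6.87 CPM in NC_CD8 cells, against 19 and 13.2 CPM in Esamhi and 189 and 161 CPM in Esamlo cells. Its difference was -1.4 ± 0.21 (adjusted p = 0.00132) against Esamhi and -4.86 ± 0.23 (adjusted p = 1.24e-06) against Esamlo cells, and Esamlo cells were above Esamhi cells by 3.46 ± 0.21 (adjusted p = 2.46e-05). Lyz2 differed by -2.94 ± 0.29 (adjusted p = 8.53e-05) and -5.06 ± 0.32 (adjusted p = 1.07e-05), with 2.13 ± 0.28 (adjusted p = 0.00306) between the fractions. Ccl6 was not called against Esamhi cells (-0.93 ± 0.34, adjusted p = 0.122) but was against Esamlo cells (-3.27 ± 0.36, adjusted p = 0.000296). Against Esamhi cells its adjusted p was 0.01 without the NC_CD8 library of batch C. Its difference between the fractions was 2.34 ± 0.35 (adjusted p = 0.00505), with an adjusted p of 0.0752 without the Esamhi library of batch D. Ltb4r1, a leukotriene B4 receptor, had 3.51 and 1.7 CPM in NC_CD8 cells, against 9.26 and 6.93 CPM in Esamhi and 63.8 and 26.1 CPM in Esamlo cells, and its difference from both fractions together was -2.96 ± 0.56 (adjusted p = 0.00542), with an adjusted p of 0.0782 without the NC_CD8 library of batch D.

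**Figure D4:**
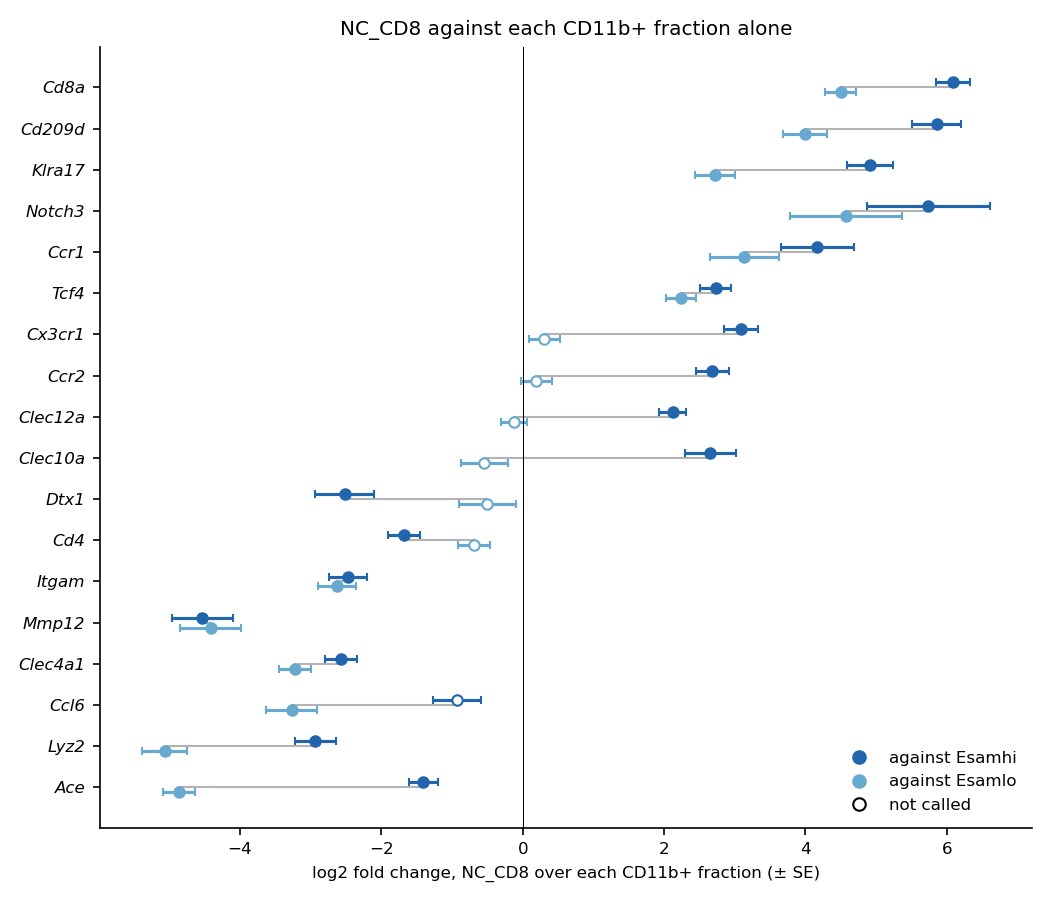
Log2 difference of NC_CD8 over Esamhi (dark blue) and over Esamlo (light blue) wild-type cells, with bars of 1 SE (horizontal axis), for 18 genes (rows), where open circles mark differences that were not called. Cd8a, Itgam and Mmp12 lie on the same side against both fractions, and Cx3cr1, Ccr2, Clec12a and Clec10a were called against Esamhi cells and not against Esamlo cells.

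Markers of other cells of the spleen were followed in every library. As a background, 5.55% of all tested genes were higher in NC_CD8 cells and 4.87% lower. In the short B cell, neutrophil and red pulp macrophage lists, 1 or 2 calls are not read as a result about the list. Of 15 tested T cell genes 8 were higher in NC_CD8 cells and none lower, with a median of 2.68. With the batch as a block 12 were higher, and without the NC_CD8 library of batch C, the Esamhi library of batch D or the Esamlo library of batch D, 1 was; without the NC_CD8 library of batch D, 3 were. Cd3e, part of the T cell receptor complex, had 25.1 and 12.3 CPM in NC_CD8 cells, against 1.85 and 1.05 CPM in Esamhi and 4.03 and 2.9 CPM in Esamlo cells, with a difference of 2.93 ± 0.67 (adjusted p = 0.0157) and an adjusted p of 0.14 without the NC_CD8 library of batch C and 0.0664 without the Esamhi library of batch D and 0.0538 without the Esamlo library of batch D. Trac, the constant segment of the receptor's alpha chain, had 9.0 and 3.76 CPM in NC_CD8 cells, against 0.984 and 0.371 CPM in Esamhi and 1.1 and 0.348 CPM in Esamlo cells (3.06 ± 0.8, adjusted p = 0.0298), with an adjusted p of 0.241 without the NC_CD8 library of batch C and 0.062 without the NC_CD8 library of batch D and 0.0548 without the Esamhi library of batch C and 0.107 without the Esamhi library of batch D and 0.0905 without the Esamlo library of batch D. In the NC_CD8 library of batch B, Cd3e was at 0.48 CPM and Trac at 0.0961 CPM. Il7r, the interleukin-7 receptor, which plasmacytoid cells also express here (250.1 CPM in PDC), was higher by 1.51 ± 0.26 (adjusted p = 0.00332). The summed level of the T cell list was 281 and 240.3 CPM in NC_CD8 cells, against 121 and 149.7 CPM in Esamhi and 58 and 61.8 CPM in Esamlo cells. In the NC_CD8 library of batch B it was 165.8 CPM. Each sum runs over all tested members of its list. The T cell sum includes Il7r and so does not measure T cell content alone.

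Of 14 NK cell genes 2 were higher and none lower, with a median of 1.25 (4 higher with the batch as a block; 1 without the NC_CD8 library of batch D or the Esamhi library of batch D, and 6 without the Esamhi library of batch C). Klrd1 (CD94), a receptor that NK cells share with some dendritic cells, was at 287 and 292 CPM in NC_CD8 cells, against 97.7 and 108 CPM in Esamhi and 128 and 140.3 CPM in Esamlo cells. The difference came to 1.18 ± 0.12 (adjusted p = 9.46e-05). The NC_CD8 library of batch B held 219.6 CPM of it. The summed level of the NK list was 450.4 and 423 CPM in NC_CD8 cells, against 153 and 119 CPM in Esamhi and 215 and 196 CPM in Esamlo cells, and 226 CPM in the NC_CD8 library of batch B. Klrd1 held most of this sum in each of these libraries, so the sum does not measure NK cell content. Among 11 B cell genes 1 was higher and 2 lower (2 and 2 with the batch as a block). Without either NC_CD8 library, the Esamhi library of batch D or the Esamlo library of batch D none was higher, without the batch C library of either fraction 2 were, and 0 or 1 was lower when 1 library was left out, with none without the NC_CD8 library of batch D, the Esamhi library of batch C or the Esamlo library of batch D. Of 18 early B-lineage genes 3 were higher and 3 lower (5 and 3 with the batch as a block; 5 higher without the Esamlo library of batch C, and 1 lower without the NC_CD8 library of batch D, the Esamhi library of batch C or the Esamlo library of batch D). Cd38, an ectoenzyme that B cells and plasmacytoid cells carry, was among them at 1.59 ± 0.23 (adjusted p = 0.000949). Of 9 neutrophil genes 1, Mmp9, was lower, a call lost without the NC_CD8 library of batch D (adjusted p = 0.112), and 2 were lower with the batch as a block.

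Of 14 red pulp macrophage genes 1, Adgre1, was lower and none higher, with a median of 1.23; 4 were higher with the batch as a block and 1 without the Esamhi library of batch C. Of 9 erythroid genes edgeR called none, with 3 at an unadjusted p under 0.05 and a median of 1.83. DESeq2 called 0 of them higher, and 6 were higher with the batch as a block. Of 8 plasma cell genes edgeR called none, with 4 at an unadjusted p under 0.05, while DESeq2 called 0 higher and 1 lower and leaving out the Esamhi library of batch C gave 1 higher and 2 lower. The erythroid sum was 447 and 236 CPM in NC_CD8 cells, against 155 and 32.9 CPM in Esamhi and 153 and 43.5 CPM in Esamlo cells, and in the NC_CD8 library of batch B it was 10.04 CPM. The red pulp macrophage sum was 1325 and 362 CPM in NC_CD8 cells, against 756 and 422 CPM in Esamhi and 768 and 429 CPM in Esamlo cells, and 47.5 CPM in that library. Both sums were highest in the NC_CD8 library of batch C. The part that RNA of these cells, or of T and NK cells, has in the differences was not tested.

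**Figure D5:**
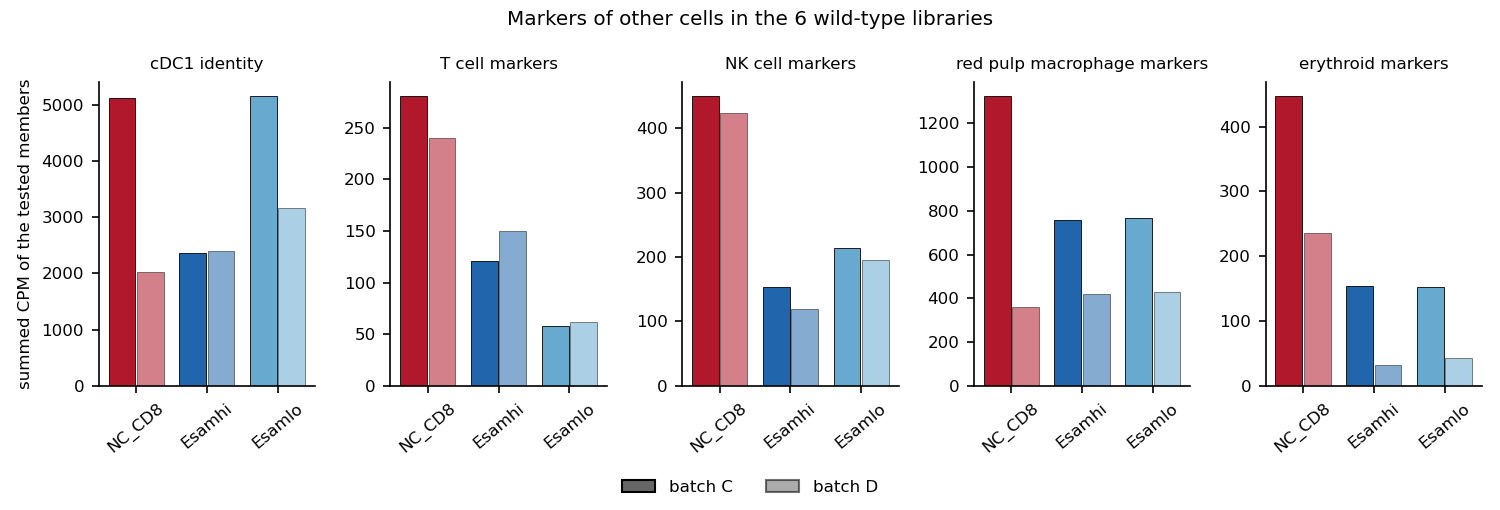
Summed level in CPM (vertical axes, from 0) of the tested members of 5 marker lists in each of the 6 wild-type libraries, with dark bars for batch C and pale bars for batch D. T and NK cell sums are higher in both NC_CD8 libraries than in any CD11b+ library, and the red pulp macrophage and erythroid sums are higher in batch C than in batch D for each subset. The T and NK cell sums hold genes that some dendritic cells express too, among them Il7r and Klrd1, so they do not measure T or NK cell content. The cDC1 sum is higher in batch C in NC_CD8 and Esamlo cells, and at 2359 and 2397 CPM in Esamhi cells.

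The place of the called genes among all 4 wild-type subsets was read from mean CPM in NC_CD8, CD11b+, PDC and canonical CD8+ libraries. Of the 962 genes called higher, 458 (47.6%) had their highest mean in NC_CD8 cells, 421 (43.8%) in PDC and 83 (8.63%) in canonical CD8+ cells. Of the 844 called lower, 538 (63.7%) were highest in CD11b+ cells, 214 (25.4%) in canonical CD8+ cells and 92 (10.9%) in PDC. Over all tested genes, 23.8% were highest in NC_CD8 cells, 18% in CD11b+ cells, 33.8% in PDC and 24.5% in canonical CD8+ cells. The PDC mean is over batches A and B and the other means over batches C and D, so batch and subset cannot be told apart in the shares of PDC. By its direction, a call mostly fixes which of NC_CD8 and CD11b+ cells holds the higher mean.

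A further NC_CD8 library of wild-type mice, from batch B, was not used in the test, and no CD11b+ library of that batch was analysed here. Of the 962 genes called higher, 744 (77.3%) were above all 4 CD11b+ libraries in it and 31 (3.22%) below all 4. Of the 844 called lower, 734 (87%) were below all 4 and 14 (1.66%) above. Among all 17341 tested genes, 28% were above all 4 and 27% below. The 4 CD11b+ libraries are the same ones that made the calls. The shares of called genes are thus partly fixed by that choice and are given as a description, also beside those of all genes. Batch B and the other batches differ in more than the sample, and for this library batch and subset cannot be told apart. Tcf4 was at 433 CPM in it, Cd8a at 382 CPM, Itgam at 24 CPM and Ccl3 at 78.8 CPM. The first pair of these genes was thus high and the second low, as in the libraries of batches C and D.

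The same comparison in ITD mice, whose 6 libraries come from the same batches, called 1315 genes higher in NC_CD8 cells (7.58%) and 1481 lower (8.54%). Of the genes called higher in WT mice, 734 were also called higher in ITD mice, which is 76.3% of the WT list and 55.8% of the ITD list. Of those called lower, 635 were shared, 75.2% of the WT list and 42.9% of the ITD list. Without the NC_CD8 library of batch C of ITD mice, 658 genes were higher and 677 lower in ITD mice, and the shared genes were 57% of the WT list and 74% of the ITD list for the higher ones and 55.1% and 64% for the lower ones. Without that of batch D, 709 were higher and 773 lower, and the shares of the WT list and the ITD list were 59.6% and 72.1% for the higher ones and 57.2% and 58.3% for the lower ones. Leaving out a WT library moved the shares too: without the NC_CD8 library of batch D of WT mice, the shared genes were 25.8% of the ITD list for the higher ones and 19.9% for the lower ones. The log2 difference in ITD mice was 4.91 ± 0.17 (adjusted p = 5.08e-08) for Cd8a, 2.84 ± 0.17 (adjusted p = 2.57e-06) for Tcf4, -1.78 ± 0.24 (adjusted p = 0.000399) for Itgam and -1.47 ± 0.2 (adjusted p = 0.000465) for Ccl3. Whether the difference itself depends on the genotype was tested gene by gene, and no gene was called (0% of 17341), with 1107 genes at an unadjusted p under 0.05. DESeq2 called 107 genes in that test, and edgeR called 95 without the NC_CD8 library of batch D of WT mice. Counts of called members by list were not tested for a difference between the genotypes. Of 20 cDC1 genes, 4 were higher and 1 lower in WT mice (median 0.274), a count that rested on single libraries. In ITD mice, 2 were higher and 14 lower (median -1.82). Of 15 T cell genes, 8 were higher in WT mice (median 2.68) and 1 in ITD mice (median 0.325). Of 23 plasmacytoid genes, 15 were higher in WT mice and 16 in ITD mice, with 2 lower in each. Itgae, the CD103 integrin chain of cDC1, was chosen after its values were seen, since it was called higher in WT mice (1.88 ± 0.52, adjusted p = 0.0397) and lower in ITD mice (-2.06 ± 0.61, adjusted p = 0.0379). It stood at 2.99 and 1.85 CPM in NC_CD8 cells of ITD mice, against 4.24 and 6.05 CPM in Esamhi and 17.3 and 18.9 CPM in Esamlo cells of ITD mice. In WT mice it was at 20.2 and 3.33 CPM in NC_CD8 cells, against 1.74 and 2.23 CPM in Esamhi and 4.58 and 4.18 CPM in Esamlo cells. The adjusted p of the difference between the genotypes was 0.293, and that of the WT difference was 0.96 without the NC_CD8 library of batch C and 0.111 without the Esamhi library of batch C and 0.0906 without the Esamhi library of batch D and 0.0659 without the Esamlo library of batch C and 0.0913 without the Esamlo library of batch D.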

How the data were processed

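Raw counts for 39017 genes, with 1 column per library, were deposited by the authors. After the sort, RNA was extracted with a PicoPure kit (in some samples after Trizol) and cDNA was made with SMART-seq v4 reagents for low input, per the labels' protocols. The submitters' processing notes name bcl2fastq 1.8.4, Bowtie2, DESeq2 1.8.2 and the mm10 build; for the counting tool, annotation, strandedness and sort gates, nothing is given in the sources used here. Since the strand is not known, reads of overlapping genes on opposite strands may be counted for either. The counts are of reads, not of molecules. The normalized table of the series was not used.

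Genes with enough counts for edgeR's filter (minimum count of 10) were kept, which left 17341 genes with at least 99.9% of the counts of each library. Normalization was by TMM, and the quasi-likelihood test of edgeR 4.0.16 in R 4.3.3 was fitted on the 16 libraries of batches C and D with 8 group means and 8 residual degrees of freedom. The SE of a log2 fold change was derived from the F statistic. Adjusted p-values are Benjamini-Hochberg over all tested genes, and the procedure was tested on simulated data. DESeq2 1.42.0, other normalization and filtering, other sets of libraries, the batch letter as a block and the loss of single libraries were tried as alternatives. The batch letters of the labels mark shared experiments and so pair the libraries: the batch C minus batch D deviations of the wild-type groups correlated at 0.191, 0.206 and 0.211 between pairs of groups, across genes, and between -0.00957 and 0.338 over all pairs of the 8 groups. The main fit had no term for batch, so its p-values and SE leave this pairing out. With the batch as a block, 2649 genes were called, against 1806 in the main fit. Nothing says that libraries came from separate animals beyond coming from independent experiments, so p-values measure the spread between these libraries.

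The text names the 4 genes Cd8a, Tcf4, Itgam and Ccl3, the 15 genes with the largest called difference in each direction among the 1254 called genes with groups that did not overlap, a mean of at least 10 CPM in the higher group and no clone name, and members of gene lists. The comparison, the lists and the members named were chosen with earlier results of these data known. The contrast of the fractions, the count of list members and the overlap between genotypes under each alternative were added after seeing the data. Genes were placed by GENCODE M21 (GRCm38), and 1410 identifiers without a symbol held 0.598% of the counts. Shared sequence is the share of a gene's 50-base sequences also found in transcripts of another gene. Promoter sequences are from RefSeq. Figures were drawn with matplotlib 3.10.9.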

Additional observations from a re-analysis of the deposited data

Results flagged for a closer look

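The NC_CD8 library of wild-type mice from batch B took no part in the comparison, and genes among the markers and the largest differences stood in it above the highest of the 4 CD11b+ libraries of batches C and D. Tcf4 was at 433 CPM, against at most 116 CPM in the CD11b+ libraries, Cd8a at 382 CPM, against at most 17.3 CPM, and Cd209d at 229 CPM, against at most 17.1 CPM. Ptprf was at 48.6 CPM, against at most 4.58 CPM, Cyp7b1 at 38.1 CPM, against at most 1.95 CPM, Lefty1 at 36.5 CPM, against at most 2.38 CPM, and Cd8b1 at 30 CPM, against at most 1.4 CPM. Ednrb was at 24.8 CPM, against at most 0.522 CPM, and Notch3 at 13.7 CPM, against at most 1.16 CPM. Lower levels were reached by Itm2a at 9.8 CPM, against at most 1.97 CPM, Ephb6 at 9.41 CPM, against at most 2.01 CPM, and Il1rl2 at 8.64 CPM, against at most 2.32 CPM. Myzap was at 6.48 CPM, against at most 1.24 CPM, and Rgs7bp at 5.33 CPM, against at most 1.53 CPM. Crtam and Igkv4-55, also among the largest differences, had 0 counts in this library. These CD11b+ libraries also took part in choosing the genes. Batch and sample cannot be told apart for it, since no CD11b+ library of batch B was analysed here.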

How the results depend on the processing

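The 962 higher and 844 lower calls of NC_CD8 over CD11b+ cells became 489 and 422 when the 6 wild-type libraries were fitted alone, with 3 residual degrees of freedom. Fitted alone, these libraries gave 865 calls against Esamhi and 502 against Esamlo cells, and all 24 libraries gave 1147 and 738. With the replicate block by batch letter, 1307 genes were lower and 2039 were called against Esamlo cells, and the difference between the genotypes was called for 1 gene; the block ended no call of the comparison with both fractions. DESeq2 called 1852 genes against Esamlo cells and 107 for the difference between the genotypes, and the fit without a filter on low counts called 1869 and 221. Leaving out 1 of the 6 libraries gave 389 to 1262 genes higher, 314 to 1090 lower, 778 to 2058 against Esamhi, 455 to 1588 against Esamlo and 0 to 95 for the difference between the genotypes. For the contrast of the fractions, 591 genes were called, against 1256 with DESeq2, 1125 without a filter, 1310 with the block, 27 with the 6 libraries alone, 119 with all 24 and 91 to 684 without 1 library. The 2796 calls in ITD mice became 1335 to 2456 without 1 of the 6 ITD libraries. The alternatives of the contrast of the fractions and of the calls in ITD mice were chosen after seeing the data. Without the NC_CD8 library of batch C the log2 difference turned to -1.31 for Xcr1, -1.37 for Naaa and -0.26 for Irf8, and without that of batch D it was 1.46, 0.95 and 0.93 for these genes in the same order. The cause of these changes was not tested. The smaller fits also hold fewer libraries, and the part of this was not tested either. Of 128 called genes followed under each alternative, most of them named in the text, RLE size factors, no filter and the block ended no call, DESeq2 ended 1, the 6 libraries alone 14, all 24 libraries 28, and leaving out 1 library 3 to 27. Precision is limited by 2 libraries in each group more than by the counts of a library, which cover counting error only.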
